A study of Mus musculus with 7 samples.

Results

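Mitochondria make most of the ATP of a resting cell with 5 protein complexes of the inner membrane. Complex I takes electrons from NADH and complex II from succinate, complex III passes them on to cytochrome c, complex IV hands them to oxygen, and complex V, the ATP synthase, uses the proton gradient that complexes I, III and IV build. Most subunits are encoded in the nucleus, and some complex IV subunits exist as alternative isoforms that are known from heart and skeletal muscle. The lining of the adult colon is known to draw much of its energy from the oxidation of short-chain fatty acids in mitochondria.

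Transcript levels of these complexes were followed in colon of inbred C57BL/6 mice, with 1 array for each embryonic day between E13.5 and E18.5 (6 arrays) and 1 for the adult, 8 weeks after birth. The labels name no treatment or genetic change, and do not say how many animals gave the RNA of an array. Members were all genes whose symbol in the annotation of the platform starts with Nduf and a, b, c, s or v (complex I), Sdh and a to d (complex II), Uqcr (complex III), Cox4 to Cox8 (complex IV) or Atp5 (complex V). The rule found 94 genes of 18194 with a probe set that names 1 gene, of which 44 belong to complex I, 8 to complex II, 8 to complex III, 17 to complex IV and 17 to complex V. By role, 73 are subunits, 9 are alternative isoforms or paralogs and 12 are assembly factors, proteins that help to build a complex without staying in it. A further 8 matching symbols lie only on probe sets shared by several genes and were left out, among them Ndufa11 and Ndufs6, and the complex IV subunit Cox7b was not analysed here. The subunits that the mitochondrial genome encodes do not carry these symbols and are not members.

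All values are log2 intensities, which the authors had put through RMA normalization, and a gene's level is the median over its probe sets. There are no replicates within a stage. A slope in log2 per embryonic day was therefore fitted to the 6 embryonic arrays, together with an adult term, which is the adult level less the value of that line at E18.5. The standard errors and adjusted p-values below come from this limma fit over all 18194 genes and measure the scatter of 1 array per stage around a straight line. A slope was called at an adjusted p under 0.05, and an adult difference also had to reach 1 on the log2 scale. Of the 94 members, 62 had a mean level in the brightest 10% of all genes and 11 a mean level below that of the median gene, 6.13.

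One array stood apart before any comparison. At E15.5 the levels of 84 of the 94 members lay below the mean of their own levels at E14.5 and E16.5, with a median deviation of -0.36 and quartiles of -0.53 and -0.17. Of all 18194 genes 9188 lay below, and of the 1820 in the brightest 10% 1163 did. The deviation was 0.3 or more downwards in 56 members, against 11.7% of all genes and 29.3% of the brightest 10%. It was 0.3 or more upwards in 4 members, against 5.62% of all genes. The median deviation was 0.00 over all genes and -0.11 over the brightest 10%. By complex it was -0.36 for complex I, -0.17 for II, -0.39 for III, -0.27 for IV and -0.41 for V, where all 17 genes lay below. The 4 members above were Uqcrc1 of complex III, the assembly factors Sdhaf1 and Sdhaf3, and the isoform Cox4i2. Low values at E15.5 were thus found in every complex, but without probe sets that can share transcripts the median level of complex II lay 0.03 above its neighbours and that of complex IV at -0.04. The same median over other lists was -0.38 for pyruvate dehydrogenase and the citric acid cycle, -0.39 for markers of the colon epithelium, -0.30 for dividing cells (all 5 below), -0.06 for smooth muscle and 0.10 for enteric neurons and glia. The 3′ probe set of Gapdh read 12.45 at E15.5 and from 12.68 to 12.80 on the other arrays, and the 5′ minus 3′ difference of Gapdh was -1.59 at E15.5, against -1.29 to -1.48 on the other embryonic arrays. Their part in the low E15.5 values was not tested, and with 1 array a change in the tissue and a change in the sample cannot be told apart. Counts of calls are therefore given with and without it, and for single genes the value without it is given where it changes a call. The array was singled out on the levels of these same members, so counts without it are no test of members against all genes. All 12 slopes called upwards, the slope of Cox7c and the 4 adult differences called with all arrays were also called without E15.5.

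**Figure D1:**
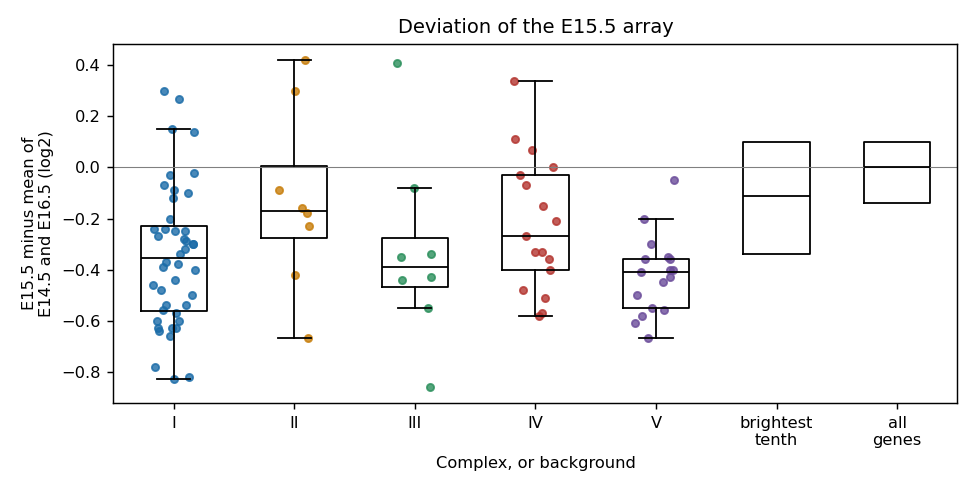
Each point is 1 member gene, and the vertical axis gives its log2 level at E15.5 minus the mean of its levels at E14.5 and E16.5. Boxes show the median and quartiles of each complex, of the brightest 10% of genes and of all genes (whiskers for the complexes only, to the farthest point within 1.5 times the box). All 17 complex V genes lie below 0, while the box of all genes is centred on 0.00.

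Stretches of the promoters of 7 members are shown, chosen by hand from the 20 that rose without E15.5 and hold a motif. The motifs are those of factors known to act on mitochondrial genes. Uqcr11, Cox6a1 and Sdhd also rose with all arrays. So did Cox8a, which holds a motif and is not shown. Sequences are those of RefSeq on GRCm38.p6, read 5′ to 3′ on the strand of the gene, and capitals mark the motif. Motifs were searched on both strands as GCGCATGCG for the nuclear respiratory factor NRF1, CCGGAAGT for GABP, TCAAGGTCA for the oestrogen-related receptors (ERR) and AAGATGGC for YY1. Capitals in ACTTCCGG, TGACCTTGA and CGCATGCGC are the reverse strand of the GABP, ERR and NRF1 letters, and the 10 capitals of Cox6a1 and Atp5k are the NRF1 letters on both strands, overlapping.
Uqcr11 (complex III; GABP, then NRF1; chr10:80406793-80406912, minus strand): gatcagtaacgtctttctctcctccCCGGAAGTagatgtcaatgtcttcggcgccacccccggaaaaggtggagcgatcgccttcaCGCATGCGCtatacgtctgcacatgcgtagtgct
Cox6a1 (complex IV; NRF1; chr5:115349086-115349145, minus strand): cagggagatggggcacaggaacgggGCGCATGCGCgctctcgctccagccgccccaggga
Atp5k (complex V; NRF1; chr5:108434415-108434474, minus strand): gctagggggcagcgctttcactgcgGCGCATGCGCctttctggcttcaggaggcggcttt
Sdhd (complex II; ERR; chr9:50603800-50603823, minus strand): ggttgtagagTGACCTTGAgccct
Atp5g3 (complex V; ERR; chr2:73911345-73911403, minus strand): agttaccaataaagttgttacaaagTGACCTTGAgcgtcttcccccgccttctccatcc
Atp5h (complex V; GABP; chr11:115419926-115419983, minus strand): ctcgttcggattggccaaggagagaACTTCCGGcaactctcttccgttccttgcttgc
Atp5j (complex V; YY1; chr16:84835032-84835089, minus strand): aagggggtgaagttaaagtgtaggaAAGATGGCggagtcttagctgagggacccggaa

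Promoter windows from 250 bases before to 50 bases after a start were found for 78 of the 94 members. Some of these starts lie inside the gene. The window of Atp5g3 (73911277 to 73911576, minus strand) lies within the gene, which ends at 73912464. For Atp5j the window at the outer end of the gene (84835576 to 84835875) holds no motif. Its printed match lies in a window inside the gene (84834927 to 84835226). The NRF1 letters occurred in 9 of the 78 genes (11.5%), against 3.1% of the 14369 genes on the array with a window and 1.75% of all 32851 windows. The YY1 letters occurred in 10 (12.8%), against 4.09% of genes on the array and 2.75% of all windows. Most of these YY1 matches lay in the 50 bases after the start, such as those of Ndufb8 and Ndufs4. So did the ERR match of Sdhd. The ERR letters occurred in 2 (2.56%), against 0.404% of genes and 0.423% of windows, and the GABP letters in 5 (6.41%), against 6.65% of genes and 3.89% of windows. At least 1 of the 4 motifs was present in 25 of 78 members (32.1%) and in 13.3% of genes on the array. It was present in 20 of the 43 members with a window that rose without E15.5 and in 5 of the other 35. That split rests on calls made without the array on which members were low. The share with a motif among all genes that rose was not analysed here, so the split has no background. These are descriptions of letters in a window, with no test.

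Most members had higher levels on the later arrays than on the earlier ones. Centred on each gene's mean over the 7 arrays, the median of the 94 members started at -0.14 and -0.12 (E13.5, E14.5), dropped to -0.43 at E15.5, returned to -0.01 a day later and reached 0.10 and 0.24 on the last embryonic days and 0.38 in the adult, while the same median over all genes stayed between -0.02 and 0.02. Set against E13.5, the median member differed by 0.35 on the last embryonic day and by 0.49 in the adult, and 79 of 94 members were higher in the adult than at E13.5. In bulk tissue, fewer cells of a type and less RNA per cell cannot be told apart, and the labels do not say which part of the colon an array holds.

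**Figure D2:**
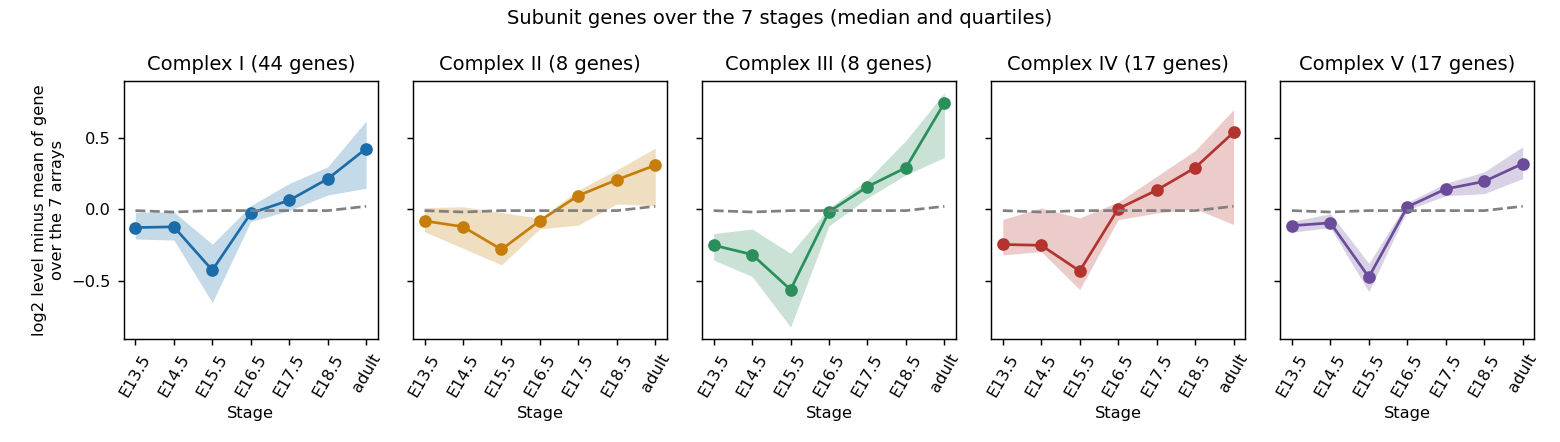
Lines give the median over the genes of each complex of the log2 level minus that gene's mean over the 7 arrays, and shading the quartiles over genes. The horizontal axis gives the 7 stages with 1 array each, and the dashed line is the median over all 18194 genes. Complexes III and IV climb farthest, to 0.75 and 0.54 in the adult, and every complex has its lowest point at E15.5.

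The median difference between E13.5 and the adult was 1.03 for complex III, 0.85 for complex IV, 0.50 for complex I, 0.45 for complex V and 0.29 for complex II. Of the 8 complex II genes 4 are assembly factors and 8 of the 17 in complex IV are isoforms or paralogs, and over subunits alone the median was 0.72 for complex II and 0.94 for complex IV. These are medians of 1 array per stage, and the differences between complexes were not tested. From stage to stage, no member moved by 0.5 or more over the first day. Into E15.5, 18 members were lower by at least 0.5, against 5.8% of all genes, and out of it, at E16.5, 34 were higher by at least 0.5, against 5.5% of all genes. Between the last embryonic day and the adult, 12 were higher by at least 0.5 and 4 lower, against 11.8% and 11.1% of all genes.

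With all 6 embryonic arrays, 12 members rose over the embryonic days and 1 fell, against 9.12% of all genes that rose and 10.4% that fell. The share of members that rose was thus close to that of all genes. However, 80 of 94 slopes were above 0, against 50.8% of all genes and 44.9% of the brightest 10%. The median slope was 0.080 per day, against 0.001 over all genes and -0.013 over the brightest 10%. Without the E15.5 array 48 members rose, all 12 among them, and 2 fell, against 11.4% and 13.9% of all genes, with a median slope of 0.070. Of the brightest 10% of genes, where most members lie, 15.2% rose with all arrays and 22.3% without E15.5. The median slope thus moved little, and the count of calls rose 4-fold. At E15.5, 56 members and 11.7% of all genes were low by 0.3 or more. Dropping that array thus took scatter around the line from members more often than from other genes, and the shares without it are no like comparison. The count of members that rose was 1 when E18.5 was dropped, 2 when E17.5 was and 3 when E14.5 was. It was 6 when E16.5 was dropped and 9 when E13.5 was. Calls over all genes became fewer as well. From 1660 genes that rose with all arrays, the count went to 812 when E18.5 was dropped, 965 for E17.5 and 1023 for E14.5. It was 1297 for E16.5 and 1147 for E13.5. All 12 markers of the colon epithelium rose over the same days, with a median slope of 0.396, as did 5 of 8 smooth muscle markers, and all 5 measured genes of dividing cells fell. Their part in the rise of the members was not tested.

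**Figure D3:**
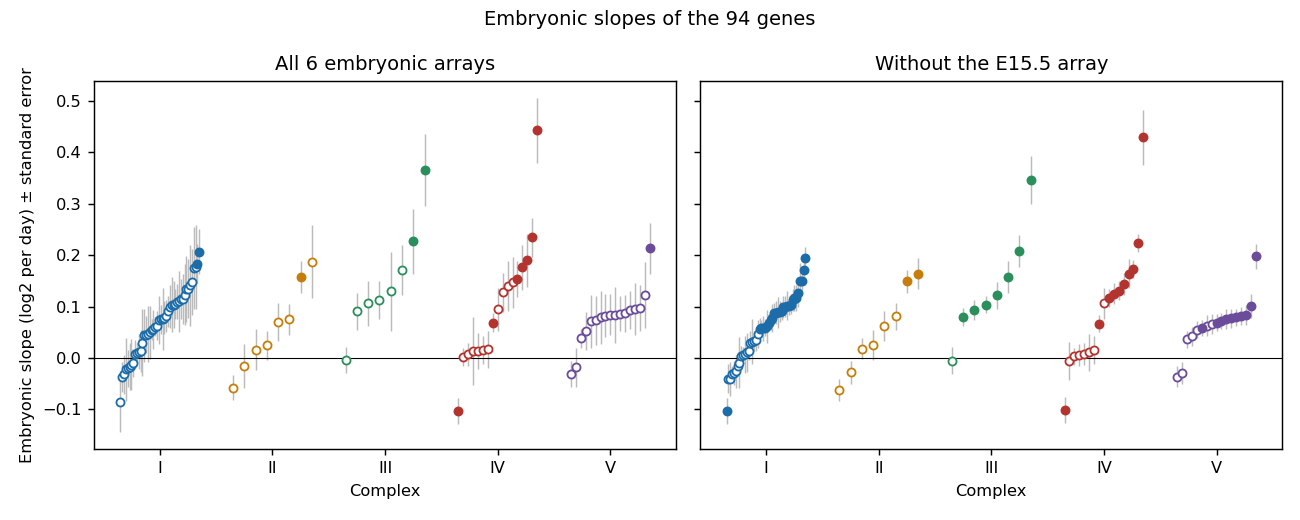
Each point is the embryonic slope of 1 member in log2 per day with its standard error, ordered by size within a complex, with all 6 embryonic arrays on the left and without E15.5 on the right. Filled points passed an adjusted p of 0.05 over all genes. Filled points number 13 on the left and 50 on the right, while the slopes themselves change little.

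Complex I, the NADH dehydrogenase, had the most members and few calls. Of its 44 genes 2 rose, Ndufb10 and Ndufv3, against 9.12% of all genes, and 20 rose without E15.5, against 11.4%. Levels of Ndufb10, an accessory subunit of the membrane arm, were 10.46, 10.51, 10.33, 10.96, 11.27 and 11.33 from E13.5 to E18.5 and 11.15 in the adult, with a slope of 0.207 ± 0.044 (SE, limma adjusted p = 0.019). It climbed from E15.5 to E17.5 and was no higher in the adult than at E17.5. Levels of Ndufv3, an accessory subunit of the NADH-binding part, were 11.37, 11.50, 11.30, 11.87, 12.11 and 12.17, and 12.27 in the adult, with a slope of 0.183 ± 0.038 (limma adjusted p = 0.018).

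The core subunits of complex I, which together carry out its reaction, gave no calls with all arrays. None of the 6 measured passed the test in limma, 2 rose at an unadjusted p under 0.05, and 4 rose without E15.5 (Ndufs3, Ndufs7, Ndufv1 and Ndufv2). Levels of Ndufv1, the subunit that binds NADH, were 10.59, 10.47, 9.82, 10.81, 10.88 and 11.14, and 11.79 in the adult. Levels of Ndufs3 were 10.62, 10.53, 10.40, 10.75, 10.85 and 10.93, and 11.12 in the adult, and those of Ndufs1, the largest core subunit, were 9.22, 9.12, 8.49, 8.86, 9.32 and 9.24, and 9.73 in the adult. All 3 were lowest at E15.5 and highest in the adult. The slope of Ndufv1 was 0.141 with E15.5 (limma adjusted p = 0.28) and 0.116 without it (limma adjusted p = 0.022).

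Complex I also held 2 of the 4 members that were higher in the adult. Levels of Ndufa1, a small accessory subunit needed to assemble the membrane arm, were 9.21, 9.18, 8.48, 9.43, 9.71 and 9.94, and 11.28 in the adult, 1.52 above the fitted E18.5 level (limma adjusted p = 0.047). Levels of Ndufa6, an accessory subunit of the LYR family, were 9.16, 9.15, 8.75, 9.28, 9.52 and 9.64, and 10.63 in the adult, 1.09 above the fitted level (limma adjusted p = 0.027). Without E15.5 these differences were 1.43 and 1.04 (limma adjusted p = 0.0012 and 0.0019). In both genes the adult array was above every embryonic array.

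Ndufa4, which the symbol places in complex I although the protein is also described as a subunit of complex IV, did not rise. Its levels were 9.72, 9.82, 9.57, 9.53, 9.76 and 9.50, and 9.20 in the adult, with a slope of -0.037 (limma adjusted p = 0.45). Its paralog Ndufa4l2, a known target of hypoxia signalling, read 6.25, 6.11, 6.30, 6.54, 6.66 and 6.51, and 6.27 in the adult, with a slope of 0.091 (limma adjusted p = 0.08). The adult level lay below the embryonic range for Ndufa4 and within it for Ndufa4l2.

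Complex II, succinate dehydrogenase, also belongs to the citric acid cycle. Levels of Sdhd, one of its membrane anchors, whose ERR motif is shown above, were 9.84, 9.95, 9.84, 10.09, 10.42 and 10.60, and 10.81 in the adult, with a slope of 0.157 ± 0.031 (limma adjusted p = 0.015). Levels of the iron-sulphur subunit Sdhb were 9.37, 9.28, 8.77, 9.60, 9.83 and 10.18, and 10.64 in the adult, and its slope passed the test only without E15.5 (0.187, limma adjusted p = 0.12, and 0.164, limma adjusted p = 0.013). Sdhd climbed with hardly a dip at E15.5, whereas Sdhb had its lowest value there.

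The catalytic subunit Sdha and the anchor Sdhc did not pass the test. Levels of Sdhc were 8.83, 8.80, 8.60, 8.73, 9.02 and 9.16, and 9.29 in the adult. Levels of Sdha were 7.72, 7.80, 7.55, 7.76, 7.92 and 7.78, and 8.04 in the adult, but its 4 probe sets disagreed. From E13.5 to adult, the brightest went from 10.64 to 11.80 and the next from 9.85 to 10.58, while the dimmer pair went from 4.18 to 4.20 and from 5.59 to 5.50, so the median of Sdha understates what its bright probe sets showed.

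Complex III, the cytochrome c reductase, had a median slope of 0.121 per day, all of its members being subunits, against 0.095 for all members of complex IV and 0.147 for the subunits of complex IV alone. Of its 8 genes 2 rose with all arrays and 7 without E15.5, against 9.12% and 11.4% of all genes. Levels of Uqcr10, a small subunit beside cytochrome c1, were 7.21, 7.07, 6.98, 7.76, 8.36 and 8.84, and 10.03 in the adult. Its slope was 0.365 ± 0.070 (limma adjusted p = 0.014), and the adult array was 1.41 above the fitted E18.5 level (limma adjusted p = 0.038). It was the only member besides Cox7a1 to pass both tests, and its 3 probe sets were all higher in the adult than at E13.5, by 1.40 to 3.84. The adult call rests on the dimmer probe sets, since the brightest went only from 10.49 on the last embryonic day to 10.78 and with it alone the call was lost.

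Levels of Uqcr11, a small accessory subunit with a GABP and an NRF1 motif in its promoter, were 8.63, 8.54, 8.21, 8.98, 9.24 and 9.64, and 9.76 in the adult, with a slope of 0.227 ± 0.063 (limma adjusted p = 0.048). The Rieske iron-sulphur protein Uqcrfs1, which passes electrons to cytochrome c1, read 9.90, 9.74, 9.58, 10.09, 10.34 and 10.63, and 11.13 in the adult. It missed the threshold with all arrays (0.171, limma adjusted p = 0.052) and passed without E15.5 (0.158, limma adjusted p = 0.016).

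The paired core proteins of complex III moved in opposite directions at E15.5. Levels of Uqcrc1 were 8.29, 8.14, 8.73, 8.51, 8.61 and 8.84, and 9.37 in the adult, and those of Uqcrc2 were 11.14, 11.19, 10.41, 11.36, 11.52 and 11.66, and 12.12 in the adult. At E15.5 Uqcrc1 lay 0.41 above and Uqcrc2 0.86 below the mean of the neighbouring stages, and both rose without that array. The remaining gene, Uqcrq, stayed flat in its median, between 5.37 and 5.63, but its brightest probe set went from 8.75 to 10.48 between the first array and the adult, and the other 3 stayed within 0.5 of their first value.

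Complex IV, cytochrome c oxidase, held 6 of the 12 members that rose, 9 without E15.5. Of its 9 common subunits 5 rose and 1 fell, and 8 rose without E15.5. Over all genes 9.12% rose and 10.4% fell, and 11.4% rose without E15.5. Levels of Cox6a1, whose promoter holds the NRF1 motif, were 10.71, 10.99, 10.77, 11.36, 11.70 and 11.81, and 11.85 in the adult, with a slope of 0.235 ± 0.038 (limma adjusted p = 0.0078). Levels of Cox8a, a small membrane subunit, were 8.66, 8.86, 8.42, 9.13, 9.37 and 9.54, and 9.81 in the adult, with a slope of 0.190 ± 0.052 (limma adjusted p = 0.045). The largest step of both was from E15.5 to the next day.

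Levels of Cox5a, a subunit on the matrix side, were 10.22, 10.38, 10.09, 10.46, 10.87 and 11.08, and 11.47 in the adult, with a slope of 0.176 ± 0.044 (limma adjusted p = 0.033). Cox4i1, the common isoform of the regulatory subunit that binds ATP, read 11.25, 11.20, 11.13, 11.60, 11.78 and 11.89, and 12.14 in the adult, with a slope of 0.153 ± 0.035 (limma adjusted p = 0.024). Their partner Cox5b read 11.39, 11.41, 11.06, 11.74, 11.92 and 11.98, and 12.33 in the adult, and passed only without E15.5 (limma adjusted p = 0.0054). All 3 were higher at every stage from E16.5 on than at any earlier stage.

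Cox7c was the single member that fell with all arrays. Its levels were 6.75, 6.85, 6.68, 6.37, 6.44 and 6.34, and 5.98 in the adult, with a slope of -0.103 ± 0.026 (limma adjusted p = 0.036). Its 2 probe sets both went down between E13.5 and the adult, by 0.60 and 0.96. With the brighter probe set alone the fall did not pass the test.

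Among the isoforms of complex IV, Cox7a1, an isoform best known from heart and skeletal muscle, had the largest slope and the largest adult difference of all 94 members. Its levels were 5.31, 5.27, 5.42, 5.99, 6.82 and 7.36, and 8.79 in the adult, from 1 probe set, with a slope of 0.443 ± 0.063 (limma adjusted p = 0.005) and an adult difference of 1.65 (limma adjusted p = 0.014). It was flat until E15.5, climbed at every later stage and was the only member that rose whichever embryonic array was left out. Its counterpart Cox7a2, the isoform found in most tissues, read 12.16, 12.20, 12.21, 12.27, 12.41 and 12.50, and 12.55 in the adult, with a slope of 0.069 ± 0.019 (limma adjusted p = 0.045). Cox7a2l, which takes part in joining complexes III and IV, stayed between 10.22 and 10.64 with no trend (slope 0.017, limma adjusted p = 0.83).

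Cox8b, likewise known from muscle and from brown fat, was flat in the embryo and higher in the adult. Its levels were 5.95, 5.68, 5.92, 5.95, 5.84 and 5.94, and 6.88 in the adult, 0.97 above the fitted level (limma adjusted p = 0.0041), just short of the size of 1 asked of a call. The third muscle isoform, Cox6a2, stayed between 6.03 and 6.34, with a slope of 0.007 (limma adjusted p = 0.88). Of this pair Cox8b alone stood above its embryonic range by more than the scatter of the embryonic arrays. Of 11 markers of striated muscle, Actc1 rose to 9.48 at E18.5 and was 6.59 in the adult, and none of the other 10 passed either test. Between the first array and the adult, Des of smooth muscle went from 5.84 to 7.58 and Smtn from 6.57 to 9.09. Of 6 measured fat cell markers, 2 were higher by at least 1 in the adult. These were Adipoq and Retn, at 7.45 and 8.24 there, with embryonic values of at most 4.49 and 6.11. From E18.5 to the adult, Cidec went from 5.33 to 5.98, Fabp4 from 7.52 to 7.77 and Lep from 4.94 to 5.09. Ucp1 of brown fat read from 5.58 to 6.09 on all arrays. The part of these cell types in the levels of Cox7a1 and Cox8b was not tested.

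Of the other isoforms, Cox6b2, which is known from testis, read 8.56, 8.18, 7.69, 8.33, 8.21 and 8.51, and 7.38 in the adult, its lowest value, with an adult difference of -0.90 (limma adjusted p = 0.13) that passed without E15.5 when no limit on size was set (-0.96, limma adjusted p = 0.017). Its common counterpart Cox6b1 read 11.58, 11.53, 11.22, 11.88, 12.01 and 12.14, and 12.43 in the adult, and rose without E15.5 (limma adjusted p = 0.0082). In the adult the pair ended on opposite sides of its E13.5 levels. Cox4i2, an isoform known from lung and from hypoxia, read 5.19, 5.42, 5.78, 5.45, 5.45 and 5.90, and 5.24 in the adult, with no call in either test. Cox8c ranged from 5.90 to 6.29 and Cox7b2 from 4.09 to 4.25, with no call either.

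**Figure D4:**
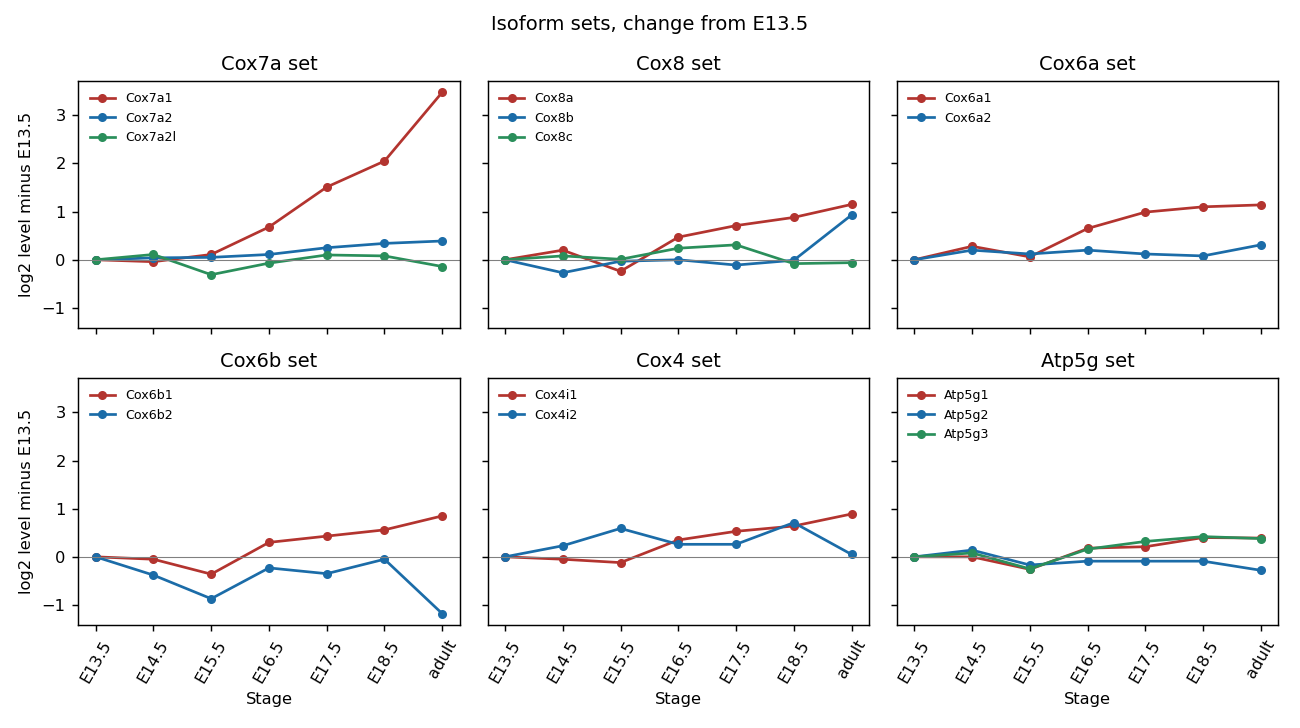
Each line is 1 gene, and the vertical axis gives its log2 level minus its own level at E13.5, so that genes are compared by change and not by level. Cox7a1 climbs by 3.48 to the adult while Cox7a2 climbs by 0.39, Cox8b departs from 0 in the adult, and Cox6b2 ends 1.18 below its start.

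The 17 genes of complex V, the ATP synthase, had slopes from -0.031 to 0.213 and a median of 0.084. With all arrays 1 rose, against 9.12% of all genes, and 10 rose without E15.5, against 11.4%. Levels of Atp5d, the delta subunit of the central stalk, were 10.45, 10.39, 10.21, 10.94, 11.16 and 11.34, and 11.65 in the adult, with a slope of 0.213 ± 0.049 (limma adjusted p = 0.026). The catalytic beta subunit Atp5b read 11.14, 11.20, 10.84, 11.34, 11.41 and 11.51, and 11.77 in the adult, and passed only without E15.5 (0.072 per day, limma adjusted p = 0.022). Both were lowest at E15.5 and highest in the adult.

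The alpha subunit Atp5a1, which alternates with beta in the catalytic head, read 11.64, 11.63, 11.62, 11.71, 11.74 and 11.82, and 11.92 in the adult, and did not pass with or without E15.5 (limma adjusted p = 0.21 and 0.17). The gamma subunit Atp5c1, the rotor shaft, read 9.66, 9.76, 9.29, 9.61, 9.70 and 9.50, and 9.64 in the adult, with a slope of -0.018. Its 2 probe sets went opposite ways, the bright one from 11.66 to 11.99 between E13.5 and the adult and the dim one from 7.67 to 7.28, so the median of Atp5c1 gives no clear direction. Neither gene was called.

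Subunit c, the ring that turns in the membrane, is encoded by 3 genes that give the same mature protein. Atp5g1 read 7.86, 7.86, 7.60, 8.04, 8.07 and 8.26, and 8.25 in the adult, and Atp5g3 read 12.09, 12.17, 11.84, 12.25, 12.41 and 12.51, and 12.47 in the adult. Both rose without E15.5 (limma adjusted p = 0.029 and 0.02). Atp5g2 read 5.29, 5.43, 5.12, 5.20, 5.20 and 5.20, and 5.01 in the adult, and none of its 3 probe sets was higher in the adult than at E13.5. The brightest began at 11.35 and ended at 10.80.

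Calls were few among the 12 assembly factors that carry these symbols. None passed the slope test in limma with all arrays, where 2 rose and 1 fell at an unadjusted p under 0.05, and their median slope was -0.001. Without E15.5 Ndufaf8 rose (0.059, limma adjusted p = 0.046) and Ndufaf2 fell (-0.103, limma adjusted p = 0.033). Over all genes 9.12% rose and 10.4% fell with all arrays, and 11.4% and 13.9% without E15.5. Levels of Ndufaf2, which works late in the assembly of complex I, were 9.87, 9.87, 9.03, 9.45, 9.39 and 9.48, and 8.78 in the adult, its lowest value. The subunits proper, 73 genes, had a median slope of 0.093. The difference between factors and subunits was not tested.

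In the adult, 4 members were higher by at least 1 (Ndufa1, Ndufa6, Uqcr10 and Cox7a1), against 4.23% of all genes, and none was lower in limma, against 3.26% of all genes. At an unadjusted p under 0.05, 4 were lower by less than 1 and none by 1 or more. With no limit on size 6 were higher, Cox8b and Ndufab1 added, against 10.2% of all genes. The level of Ndufab1 is that of a dim probe set, and its brightest went from 10.96 on the last embryonic day to 10.86. Without E15.5 the same 4 were higher by at least 1, against 4.34% of all genes, and with no limit on size 22 were higher and 2 lower, against 13.3% and 10.8%. The median adult difference was 0.22 over the members, 0.03 over all genes and -0.18 over the brightest 10%. The 4 calls are a share close to that of all genes. On the same adult array all 4 measured markers of pancreatic acinar cells were higher by at least 1 (Cela1 read 6.26 on the last embryonic day and 9.96 in the adult), as were 5 of 8 immune markers (median difference 1.15). The 5′ minus 3′ difference of Gapdh was -2.41 in the adult and -1.29 to -1.59 in the embryo, and that of Actb -2.66 and -1.96 to -2.14, and the part of these values and cell types in the adult differences was not tested.

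Around the complexes, the electron carriers and their partners gave calls in 1 direction. Of 7 measured genes of this list 2 rose and none fell, and 3 rose without E15.5. Over all genes 9.12% rose and 10.4% fell, and 11.4% rose without E15.5. Cyc1, the cytochrome c1 of complex III, which the symbol rule leaves out, read 9.99, 9.97, 9.59, 10.49, 10.76 and 11.04, and 11.58 in the adult, with a slope of 0.244 (limma adjusted p = 0.042). Etfb, a subunit of the carrier that brings electrons from fatty acid oxidation, had a slope of 0.115 (limma adjusted p = 0.035), with 9.75 on the first array and 10.35 on the adult one. Cycs, cytochrome c itself, went from 10.52 to 11.65 and passed only without E15.5.

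Pyruvate dehydrogenase and the citric acid cycle, which supply the electrons, rose in 3 of 16 measured genes and fell in none, with 7 and 1 without E15.5, and all 16 adult differences were above 0 (median 0.43). Suclg1, of succinyl-CoA ligase, had a slope of 0.202 (limma adjusted p = 0.028), with levels of 8.88 on the first array and 10.32 on the adult one. Ogdh, of the 2-oxoglutarate dehydrogenase, had a slope of 0.156 (limma adjusted p = 0.012) and went from 7.60 to 8.85. In glycolysis 4 of 14 rose and none fell, among them Aldoa (0.178, limma adjusted p = 0.03) and Hk1 (0.167, limma adjusted p = 0.0046), with a median adult difference of -0.09, and 5 rose and 1 fell without E15.5. The shares of all genes that rose and fell were 9.12% and 10.4% with all arrays and 11.4% and 13.9% without E15.5.

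Genes that build and fill mitochondria gave calls in both directions or none. Of 35 measured assembly factors outside the symbol rule 3 rose and 3 fell (4 and 5 without E15.5), among them the copper chaperone Cox17 (0.145, limma adjusted p = 0.042) and the iron-sulphur protein Nubpl (-0.141, limma adjusted p = 0.012). These counts are close to the shares of all genes, 9.12% and 10.4% with all arrays and 11.4% and 13.9% without E15.5. Of 15 genes of import, chaperones and channels none passed the slope test in limma, 1 rose and 1 fell at an unadjusted p under 0.05, and 1 rose and 1 fell without E15.5. Their median slopes were 0.003 and 0.005 per day.

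Regulators known to act on mitochondrial genes split. Of 16 measured, 2 rose and 5 fell, against 9.12% and 10.4% of all genes. Without E15.5 these counts were 2 and 6, against 11.4% and 13.9%. Esrra, an oestrogen-related receptor, read 5.95, 6.02, 6.37, 6.38, 6.76 and 6.79, and 6.90 in the adult, with a slope of 0.183 (limma adjusted p = 0.004), and had no dip at E15.5. The coactivator Ppargc1b rose (0.149, limma adjusted p = 0.019), with 5.33 on the first and 6.13 on the last embryonic day, and read 7.41 in the adult, 1.44 above the fitted level (limma adjusted p = 0.0015). Its relative Ppargc1a had no embryonic trend (0.042, limma adjusted p = 0.6), with 7.95 on the last embryonic day against 9.12 in the adult, 1.20 above the fitted level (limma adjusted p = 0.013).

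The regulators that fell were Hif1a, Tfam, Gabpb1, Gabpa and Tefm, the last a mitochondrial elongation factor with a slope of -0.130 (limma adjusted p = 0.026). Hif1a, the oxygen-sensitive factor, fell from 9.78 to 8.71 over the embryonic days (slope -0.239, limma adjusted p = 0.0026). Tfam, which packages and transcribes the mitochondrial genome, fell from 9.49 to 8.79 (slope -0.151, limma adjusted p = 0.0066) and was 8.64 in the adult. Gabpa and Gabpb1, which together form GABP, fell with slopes of -0.135 and -0.141 (limma adjusted p = 0.02 and 0.008). Nrf1 went from 6.81 to 6.50 and did not pass (slope -0.064, limma adjusted p = 0.12). Relations between regulators and members were not tested.

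**Figure D5:**
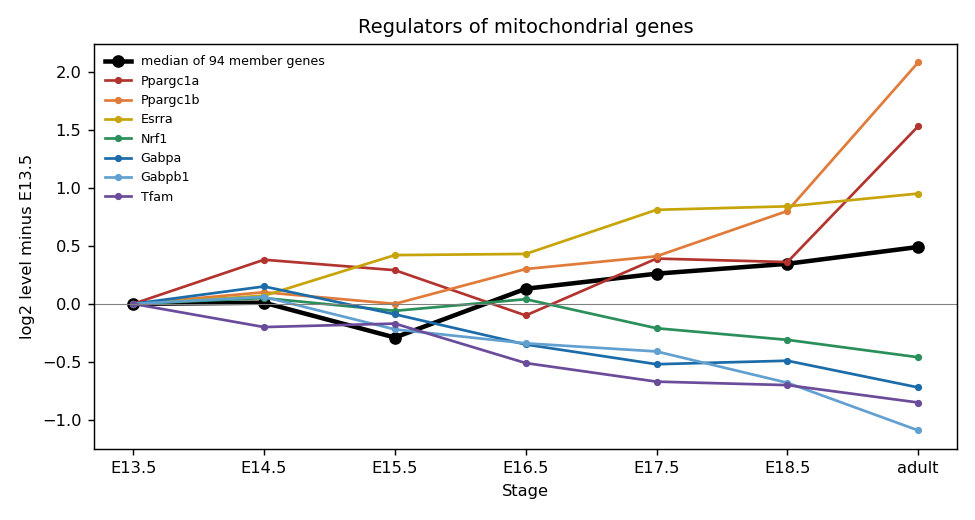
Lines give the log2 level minus the level at E13.5 on the 7 arrays for 7 regulators, and the thick black line the median of the same difference over the 94 members. The median ends 0.49 above its start. Ppargc1b, Ppargc1a and Esrra end above theirs, and Nrf1, Gabpa, Gabpb1 and Tfam end below.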

How the data were processed

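RNA of 7 colon samples was hybridized to Affymetrix mouse genome arrays. The deposited log2 values were made by the authors with RMA, in affy 1.22.1 under R 2.9.2 according to the processing notes of the submitters. RMA gives all arrays a like distribution and can hide a change that most genes share. The median level over genes ran from 6.07 to 6.17. Of 45101 probe sets, 34958 name 1 gene in the platform annotation and were used, and 932 with several genes and 9211 with none were left out. The median over a gene's probe sets was taken for 18194 genes. Of the members, 53 had several probe sets (185 in all), and in 25 of these the means of the probe sets differed by over 2, so a median can mix bright and dim probe sets.

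limma 3.58.1 in R 4.3.3 (lmFit, eBayes) fitted the slope and the adult term with 4 residual degrees of freedom and Benjamini-Hochberg adjustment over all genes, and the calculation was tested on simulated data. Nothing says whether an array holds 1 animal or a pool. Precision is limited by having 7 arrays. Named were, in each complex, up to 4 genes with the largest slope and 4 with the largest adult difference among those called, core subunits, isoform sets, and up to 2 of each kind from each of 6 lists around the complexes (103 of 111 genes measured) and, beyond this rule and chosen after their values were seen, Ndufab1, Ndufaf2, Ndufaf8, Uqcrq, Cox7c, Cycs, Tfam, Gabpa, Gabpb1, Tefm, Nrf1 and marker genes. Members and lists were chosen with earlier results of these data known. In 3 cases a listed gene was removed from a list after its values were seen, being a member or no assembly factor. Of 84 marker genes 76 were measured. Promoter windows came from RefSeq, GRCm38.p6, and were matched to genes by gene identifier. Comparison of protein sequences was not analysed here. Python 3.11.15, numpy 2.4.6, pandas 2.3.3 and matplotlib 3.10.9 were used. Alternatives were other choices of probe sets, no dim genes, centred arrays, other eBayes settings, a slope along the ranked stages with the adult included, another reference for the adult and leaving out each embryonic array.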

Additional observations from a re-analysis of the deposited data

How the results depend on the processing

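The number of members that rose, 12 with all arrays, depended on single arrays. Leaving out 1 embryonic array gave from 1 to 48 (9 without E13.5, 3 without E14.5, 48 without E15.5, 6 without E16.5, 2 without E17.5 and 1, Cox7a1, without E18.5). The number of members that rose was 7 without probe sets that can share transcripts (names ending in _x_at, _s_at or _a_at). Only 76 of the 94 members were measured in that setting. Of the 12, Atp5d, Cox4i1, Cox6a1, Ndufb10 and Ndufv3 had no probe set left there, and Cox5a was measured but not called. The number was 31, including all 12, with a slope along the ranked stages, adult included. It was 11 to 14 under the other settings. The number that fell, 1, was from 0 to 2 when 1 array was left out, and 0 with the probe set of highest mean and 0 without shared probe sets, where 1 and 3 fell at an unadjusted p under 0.05 in limma. The 4 members higher in the adult were from 1 to 4, and Cox7a1 alone without E14.5, E16.5, E17.5 or E18.5. With the last 2 embryonic arrays averaged as reference, a fit with few degrees of freedom, limma called 0, and 4 were higher by at least 1 at an unadjusted p under 0.05. Without shared probe sets the median level of complex II at E15.5 was 0.03 above its neighbours and that of the adult -0.13 from E18.5, against 0.25 with the probe set of highest mean, and for complex IV these values were -0.04 and 0.00. The cause was not tested. No slope or adult difference of a gene named by the rule changed sign where it was called, but slopes near 0 did, as that of Cox6b2 (0.013, and -0.006 without E15.5) and Atp5c1 (-0.018, and 0.030 with the probe set of highest mean). No paired analysis was possible because each stage has 1 array. Bright probe sets of a gene and its dim ones can differ, and levels near the median gene leave little room to see a fall.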
